A study of Mus musculus with 13 samples.

Results

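The LINGO and Nogo receptor genes are 9 of the 21056 genes found in all 4 deposited tables of this mouse brain study, and they comprise Rtn4, Omg, Rtn4r, Rtn4rl1, Rtn4rl2, Lingo1, Lingo2, Lingo3 and Ngfr. Members were matched by gene name, and all 9 passed the filter on low counts. The set was chosen by a measured value, the change of Lingo3 after a stroke, which was larger in microglia-depleted than in control mice. Every value of Lingo3, and the difference between both stroke changes for every member, is therefore given as a description with no test, and 8 members remained for testing.

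Axon growth in the adult brain is held back by proteins on myelin, and these genes encode one of the best-known routes. Nogo (the product of Rtn4) and oligodendrocyte myelin glycoprotein (Omg) act as ligands, and the Nogo receptor NgR1 (Rtn4r), anchored to the axon membrane by a lipid, binds them. NgR1 has no part inside the cell, so it signals through partners such as LINGO-1 and the neurotrophin receptor p75 (Ngfr), which activate the small GTPase RhoA and lead to growth cone collapse.

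Each of the 13 libraries came from the brain of a male mouse that carried CX3CR1creER on one allele and a Cre-dependent diphtheria toxin receptor (iDTR) on one allele. All 4 groups, controls included, received 2 doses of tamoxifen at 7 to 8 weeks of age, and from 30 days later either diphtheria toxin at 50 ng per g body weight on 3 days (DE) or normal saline (CON). For surgery, the middle cerebral artery was blocked for 60 min and then reopened (tMCAO, a model of stroke with reperfusion), or a sham operation was done. The groups were tMCAO_DE (toxin and tMCAO, n = 2), tMCAO_CON (saline and tMCAO, n = 4), sham_DE (toxin and sham surgery, n = 4) and sham_CON (saline and sham surgery, n = 3). The Cx3cr1 promoter drives Cre in microglia and also in other mononuclear phagocytes, so the depletion need not be limited to microglia. The genotype labels give the receptor locus a different number in most libraries, and these were read as 1 genotype. Age at surgery was given as 6 to 8 weeks, which does not match tamoxifen at 7 to 8 weeks followed by 30 days, and the sources used here do not give the part of the brain taken or the time from occlusion to sampling. For replicate 4 of tMCAO_CON the labels conflict: its treatment entry says sham surgery, its title and its description say tMCAO, and the title was followed. Nothing in the labels links replicates of the same number, and animal identifiers differ for every library.

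Libraries held 16239763 to 22080367 counts, and 16940 genes were tested. Csf1r, a receptor that microglia need to survive, lay at 6.07 to 8.50 CPM (counts scaled to the library total) in tMCAO_DE and 76.3 to 97.4 in tMCAO_CON, and at 6.10 to 16.0 CPM in sham_DE and 91.9 to 93.3 in sham_CON. The mitochondrial share of counts was 7.84% to 8.74% after toxin and 9.03% to 9.86% after saline. Replicate 3 of sham_DE and replicate 2 of sham_CON stood apart by summed neutrophil markers of 25.3 and 25.0 CPM, against 0.804 to 9.59 CPM in the other 11 libraries, and calls of members and named genes that end without both are given with that value. In bulk tissue, fewer cells of a type and less RNA per cell cannot be told apart, which holds for every difference below.

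On the mouse build GRCm38 (mm10), 4 of the 9 genes lie on chromosome 11, namely Rtn4 (chr11:29692947-29744331, plus strand), Rtn4rl1 (chr11:75193783-75267769, plus strand), Omg (chr11:79500982-79504084, minus strand) and Ngfr (chr11:95568818-95587735, minus strand). Lingo3 is a compact gene with 3 exon blocks at chr10:80832801-80844039 on the minus strand. Lingo1 lies at chr9:56618475-56796468 (minus), Lingo2 at chr4:35706647-36951747 (minus), Rtn4r at chr16:18127642-18152408 (plus) and Rtn4rl2 at chr2:84871924-84886710 (minus). Relatives within a family are alike but separable: coding sequences of Lingo1, Lingo2 and Lingo3 matched at 61.7% to 65.1% of aligned bases, those of Rtn4r, Rtn4rl1 and Rtn4rl2 at 61.6% to 64.4%, and no member shared a 50-base stretch with another member. Outside the set, Ngfr shared 0.854% of its stretches with 122 other genes, and Lingo1 shared 0.271% with 176 other genes. Omg lies inside Nf1 on the opposite strand, Rtn4 overlaps Eml6 on the opposite strand and shares 17% of its 50-base stretches with it, and Lingo2 overlaps Gm12369, Mir873a and Mir876 on its own strand and Gm12370, Gm23314 and Mir873b on the other. Whether counting used strand is not given in the sources used here, so counts of Rtn4 could hold reads of Eml6. Omg and Lingo2 shared 0% of their 50-base stretches with annotated transcripts of other genes. Reads of their neighbours from outside annotated transcripts were not examined.

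The stretches of 250 bases before the start of Lingo3 and Ngfr are shown because Lingo3 chose the set and Ngfr had its largest tested change. Both come from RefSeq (GRCm38.p6), which held entries for 7 of the 9 members, some with several starts. The most upstream start is printed, with Lingo3 at chr10:80844040-80844289 and Ngfr at chr11:95587699-95587948, each on the minus strand and written 5′ to 3′. Capitals mark an E-box (CACGTG) or a GC box (GGGCGG, or CCGCCC where it lies on the other strand).
Lingo3: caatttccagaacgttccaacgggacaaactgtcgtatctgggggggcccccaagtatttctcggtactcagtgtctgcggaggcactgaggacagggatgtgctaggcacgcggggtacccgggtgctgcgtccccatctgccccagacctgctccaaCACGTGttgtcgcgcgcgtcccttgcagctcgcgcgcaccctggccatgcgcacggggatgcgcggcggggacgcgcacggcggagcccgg
Ngfr: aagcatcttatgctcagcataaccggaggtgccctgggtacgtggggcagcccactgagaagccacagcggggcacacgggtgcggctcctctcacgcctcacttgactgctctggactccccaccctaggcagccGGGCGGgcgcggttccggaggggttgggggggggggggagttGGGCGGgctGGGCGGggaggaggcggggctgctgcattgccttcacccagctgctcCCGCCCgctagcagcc
RefSeq holds 2 starts for Lingo3. The stretch printed held 1 E-box and no GC box, whereas that of the other start (chr10:80843799-80844048, not printed) held 1 GC box, no E-box and 25 CG dinucleotides, so the motifs depend on the start chosen. The letters of the E-box were in 6.02% of all 32851 promoter stretches of this length. Ngfr had 4 GC boxes, where 8.47% of the stretches held 3 or more. No stretch of either gene contained TGACTCA, the letters bound by AP-1, or TATAAA. Searches covered both strands and no matches of different motifs overlapped. The printed stretches had 27 (Lingo3) and 16 (Ngfr) CG dinucleotides, against a median of 6 over all stretches.

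Levels between genes are compared as deposited FPKM, which divides by gene length. Omg was the most abundant member in every group, at 75.8 ± 2.15 FPKM in tMCAO_DE, 69.7 ± 4.30 in tMCAO_CON, 72.0 ± 4.01 in sham_DE and 67.3 ± 8.32 in sham_CON (mean ± SD). Rtn4r followed at 50.7, 44.5, 60.8 and 54.0 FPKM in the same order of groups, and in sham_DE its libraries overlapped those of Omg. Lingo1 and Rtn4 came next in both sham groups, with overlapping libraries, and Rtn4rl1 held place 5 there and in tMCAO_CON. In tMCAO_DE Rtn4rl1 held place 3, at 47.9 ± 1.97 FPKM, and its libraries overlapped those of Rtn4r and of Lingo1. Rtn4rl2 (12.9 to 17.1 FPKM) and Lingo3 (7.34 to 15.5 FPKM) held places 6 and 7 in all 4 groups without overlap between them. Lingo2 averaged 1.14 to 1.34 FPKM and Ngfr 0.184 to 0.923 FPKM, and these overlapped each other only in tMCAO_CON. For Lingo1, Lingo2, Rtn4 and Rtn4rl2 the gene length implied by FPKM and counts exceeded the exonic length of the annotation used here, so their place in the order depends on the authors' gene models.

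**Figure D1:**
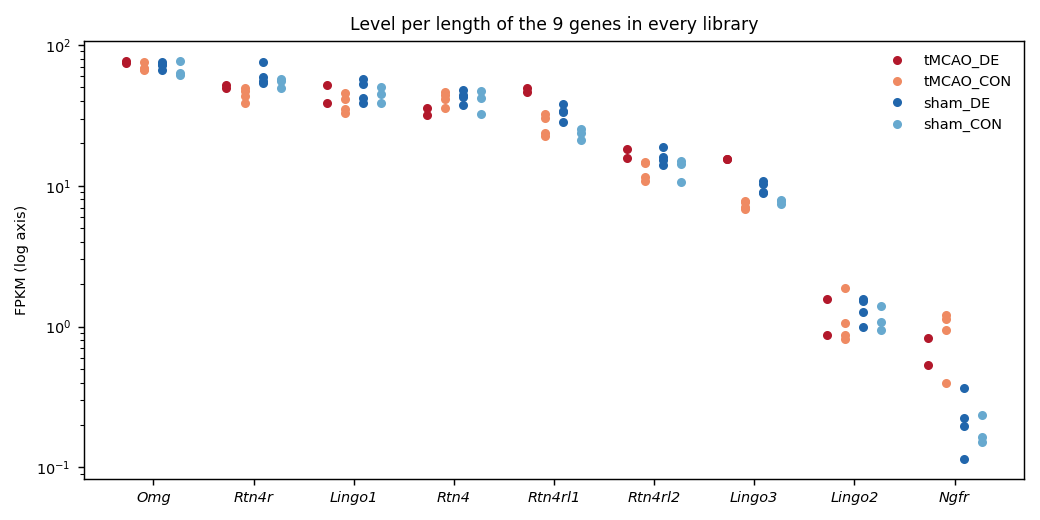
FPKM of the 9 genes on a log axis, 1 point per library and 1 colour per group, with genes ordered by their mean in sham_CON. Omg lies highest and Ngfr lowest in the sham groups, and Rtn4rl1 reaches 46.5 to 49.3 FPKM in tMCAO_DE.

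Of the ligands, Rtn4 encodes the 3 forms of Nogo, which gene counts do not separate. It had 358 and 320.5 CPM in tMCAO_DE, 454, 409.7, 350.4 and 447 CPM in tMCAO_CON, 466, 385, 494 and 439 CPM in sham_DE, and 339.9, 437 and 499.8 CPM in sham_CON. Both tMCAO_DE libraries lay below all 4 sham_DE libraries and overlapped the other groups. Omg, a lipid-anchored protein made by oligodendrocytes and neurons, had 169.4 and 164.9 CPM in tMCAO_DE, 163.3, 146.8, 142.6 and 151.2 CPM in tMCAO_CON, 154.3, 165.1, 172.7 and 161.2 CPM in sham_DE, and 142.1, 175.7 and 148.4 CPM in sham_CON. Its groups overlapped except that both tMCAO_DE libraries exceeded all tMCAO_CON libraries.

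Among the receptors, Rtn4r (NgR1) had 99.3 and 94.95 CPM in tMCAO_DE, 80.6, 72.6, 87.4 and 94.6 CPM in tMCAO_CON, 118, 147.7, 105 and 108 CPM in sham_DE, and 112, 98.1 and 116 CPM in sham_CON. Every tMCAO_CON library lay below every sham library, and both tMCAO_DE libraries lay between tMCAO_CON and sham_DE. Rtn4rl1 encodes NgR3, a relative that binds chondroitin sulphate proteoglycans of the scar and of perineuronal nets. It had 161 and 173 CPM in tMCAO_DE, 81.0, 112, 76.1 and 106 CPM in tMCAO_CON, 103, 135, 119 and 121 CPM in sham_DE, and 77.5, 86.2 and 93.9 CPM in sham_CON. Both tMCAO_DE libraries were above every other library, sham_DE was above sham_CON without overlap, and tMCAO_CON overlapped both sham groups. Rtn4rl2, which encodes NgR2, a receptor for myelin-associated glycoprotein, had 47.3 and 41.6 CPM in tMCAO_DE, 27.2, 37.3, 29.2 and 38.4 CPM in tMCAO_CON, 43.7, 50.2, 40.6 and 37.2 CPM in sham_DE, and 38.8, 28.8 and 41.1 CPM in sham_CON. Of the pairs compared below, only tMCAO_DE and tMCAO_CON were apart.

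Of the signalling partners, Ngfr is low in most of the adult brain outside a few neuron populations and is known to be induced in injured tissue. Its counts were 56 and 36 in tMCAO_DE, 24, 85, 53 and 80 in tMCAO_CON, 13, 17, 21 and 7 in sham_DE, and 11, 9 and 15 in sham_CON. As CPM these were 2.81 and 1.82 in tMCAO_DE, 1.32, 4.07, 3.12 and 3.88 in tMCAO_CON, 0.703, 0.772, 1.28 and 0.399 in sham_DE, and 0.590, 0.538 and 0.847 in sham_CON. All 6 tMCAO libraries were above all 7 sham libraries, the gap between the lowest tMCAO_CON and the highest sham_DE library being narrow, and tMCAO_DE lay inside the tMCAO_CON range. Replicate 4 of tMCAO_CON, whose treatment entry reads sham surgery, was second highest.

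Lingo1, which also restrains the maturation of oligodendrocytes, had 426 and 324 CPM in tMCAO_DE, 364, 269, 282 and 342 CPM in tMCAO_CON, 459, 482, 329.6 and 352 CPM in sham_DE, and 432, 332 and 392 CPM in sham_CON, and all groups overlapped. Lingo2, a relative with variants linked to essential tremor in people, had 12.7 and 23.2 CPM in tMCAO_DE, 27.0, 12.7, 11.6 and 15.6 CPM in tMCAO_CON, 15.3, 23.5, 22.8 and 19.1 CPM in sham_DE, and 21.7, 14.4 and 16.7 CPM in sham_CON. Its spread within groups was the second widest of the set, and no group stood apart. Lingo3, the least studied of these relatives, had 52.2 and 53.0 CPM in tMCAO_DE, 23.5, 22.8, 25.1 and 26.6 CPM in tMCAO_CON, 31.7, 35.5, 31.4 and 37.2 CPM in sham_DE, and 28.3, 26.3 and 27.9 CPM in sham_CON. Both tMCAO_DE libraries lay above the highest sham_DE library, sham_DE lay above sham_CON without overlap, and tMCAO_CON reached into the sham_CON range with 1 library. Within groups Lingo3 varied least, with a pooled SD of 0.0942 on log2 CPM, against 0.0989 for Omg, 0.197 for Rtn4rl1, 0.433 for Lingo2 and 0.575 for Ngfr.

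**Figure D2:**
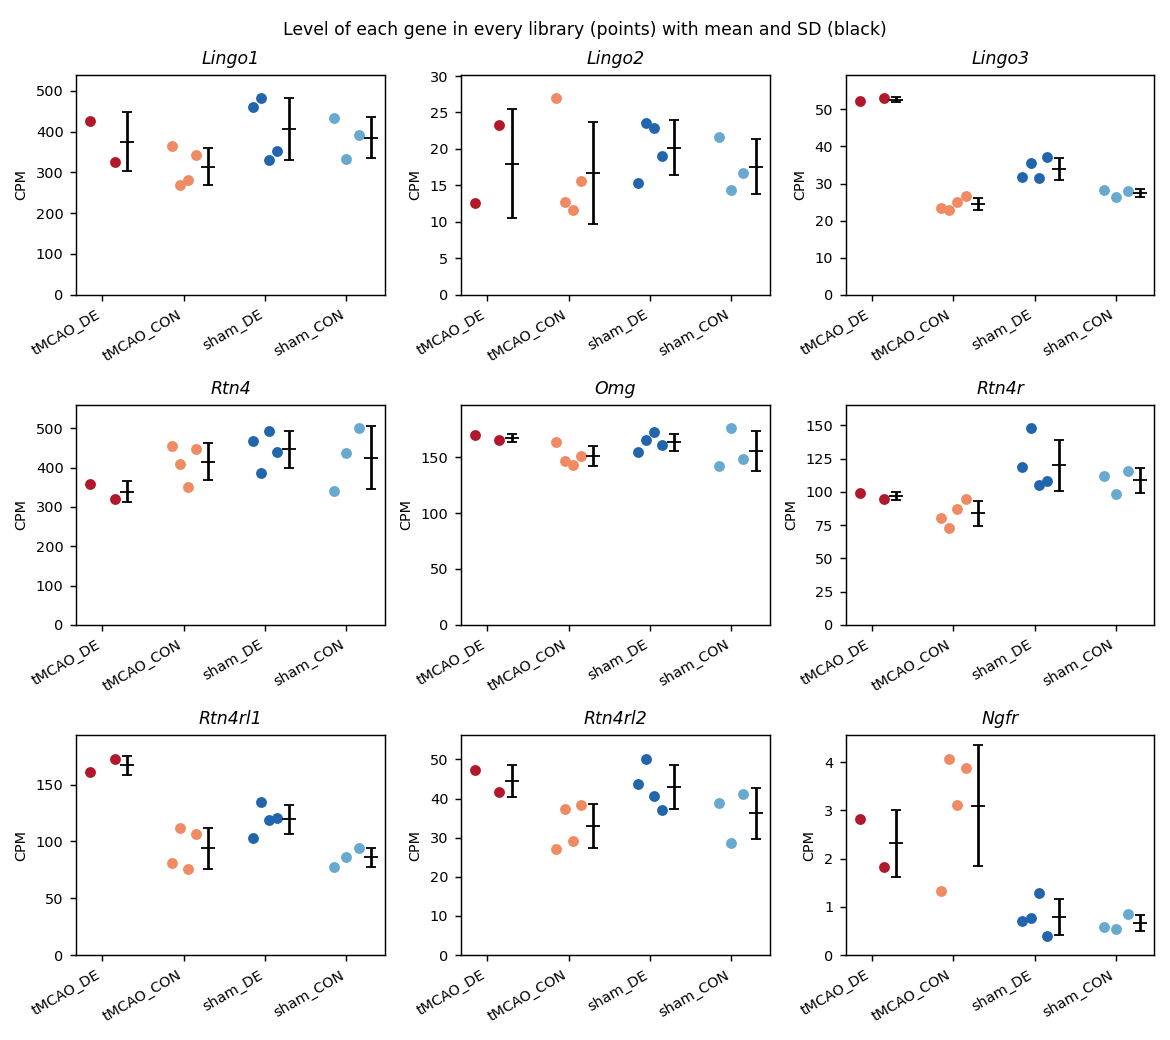
CPM of each of the 9 genes in every library, 1 panel per gene with its own axis from 0, and the mean ± SD of each group in black. Lingo3 and Rtn4rl1 are highest in both tMCAO_DE libraries, and Ngfr is higher in all tMCAO than in all sham libraries.

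Depletion without stroke was examined first, with sham_DE (n = 4) set against sham_CON (n = 3). Rtn4rl1 was the single member that rose, and none fell: 1 of 8 passed the threshold, an adjusted p under 0.05, against 11.3% of all genes in either direction, 6.85% higher and 4.49% lower. That balance turned over without both libraries high in neutrophil markers: of the 219 genes then called 37.44% were higher, against 60.44% of 1921 with all libraries. Rtn4rl1 averaged 119.6 ± 12.8 CPM in sham_DE and 85.9 ± 8.24 CPM in sham_CON, a 1.39-fold difference (log2 fold change 0.48 ± 0.13, SE, edgeR quasi-likelihood test, Benjamini-Hochberg adjusted p = 0.0373). Lingo3 averaged 33.9 ± 2.88 CPM in sham_DE and 27.5 ± 1.06 CPM in sham_CON, a log2 difference of 0.30 ± 0.083 given without a test. The ligands were close to level, with log2 fold changes of 0.069 for Rtn4 (95% interval -0.21 to 0.34) and 0.072 for Omg (-0.095 to 0.24). For Ngfr the interval of -0.77 to 1.27 left a wide range. Only the Rtn4rl1 groups did not overlap among the 8, where 22.9% of all genes had groups that did not overlap and 12% were higher. The Rtn4rl1 call ended in 10 of 21 alternatives, with adjusted p up to 0.143 in edgeR, among them those without any 1 sham_CON library (0.0668 to 0.136), without replicate 2, 3 or 4 of sham_DE (0.0692 to 0.101), without either tMCAO_DE library (0.0517 and 0.0521), and without both libraries high in neutrophil markers (0.143). Its log2 fold change stayed between 0.41 and 0.55 throughout.

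Stroke with microglia present was followed by setting tMCAO_CON (n = 4) against sham_CON (n = 3). Ngfr rose 4.68-fold, to 3.10 ± 1.25 CPM in tMCAO_CON against 0.658 ± 0.165 CPM in sham_CON (log2 fold change 2.23 ± 0.44, edgeR adjusted p = 0.00826). It was the only call among the 8 members, where 8.44% of all genes were called, 5.14% higher and 3.31% lower. This call held in all 21 alternatives, with adjusted p between 6.6e-05 and 0.0434 and in each of the 13 fits that left out 1 library; its size depended on the offset added to low values, at 0.68 with 1 FPKM added before the logarithm. Rtn4r averaged 83.8 ± 9.40 CPM in tMCAO_CON and 108.5 ± 9.21 CPM in sham_CON, and its groups did not overlap (log2 fold change -0.37 ± 0.12, edgeR adjusted p = 0.0688). It missed the threshold in edgeR and in 18 of 21 alternatives, with edgeR adjusted p up to 0.221 without replicate 3 of sham_CON. The 3 alternatives that passed were DESeq2 (0.0328), an edgeR fit of these 2 groups alone (0.0495) and the edgeR fit without replicate 2 of sham_DE (0.0288). With Ngfr higher and Rtn4r lower, 2 of 8 members had groups that did not overlap, against 23.6% of all genes, 13.1% higher and 10.5% lower. Lingo3 averaged 24.5 ± 1.68 CPM in tMCAO_CON and 27.5 ± 1.06 CPM in sham_CON, with a log2 difference of -0.17 ± 0.083. The other receptors and partners had log2 fold changes of 0.13 for Rtn4rl1 (-0.16 to 0.42), -0.13 for Rtn4rl2 (-0.46 to 0.20), -0.29 for Lingo1 (-0.63 to 0.041) and -0.074 for Lingo2 (-0.69 to 0.55), as 95% intervals. Both ligands lay within 0.05 of 0, at -0.034 for Rtn4 and -0.042 for Omg, and both changed sign on the FPKM scale. On that scale the median log2 fold change over all genes also moved, by 0.084 with 0.1 FPKM added and 0.047 with 1 added.

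Stroke after depletion was followed by setting tMCAO_DE (n = 2) against sham_DE (n = 4), and here Ngfr and Rtn4rl1 rose. They were 2 of 8 members, against 12.4% of all genes called, 6.59% higher and 5.84% lower. Ngfr averaged 2.32 ± 0.699 CPM in tMCAO_DE and 0.788 ± 0.365 CPM in sham_DE, a 2.94-fold difference (log2 fold change 1.56 ± 0.45, edgeR adjusted p = 0.0387). Rtn4rl1 averaged 167 ± 8.42 CPM in tMCAO_DE and 119.6 ± 12.8 CPM in sham_DE, or 1.40-fold (log2 fold change 0.48 ± 0.15, edgeR adjusted p = 0.0483). Lingo3 averaged 52.6 ± 0.63 CPM in tMCAO_DE and 33.9 ± 2.88 CPM in sham_DE, a log2 difference of 0.63 ± 0.091 with no test. Rtn4 had a log2 fold change of -0.40 ± 0.15 (edgeR adjusted p = 0.0961) and Rtn4r of -0.30 ± 0.14 (edgeR adjusted p = 0.161), both with separate groups and short of the threshold. Members whose groups did not overlap were thus 2 higher and 2 lower of 8, where 37.2% of all genes had such groups, 19.5% higher and 17.7% lower. Neither call held under every alternative: Rtn4rl1 lost it in 13 of 21 alternatives (edgeR adjusted p up to 0.26), among them any 1 sham_CON or either tMCAO_DE library left out, replicate 1, 3 or 4 of sham_DE, and replicate 1 or 4 of tMCAO_CON left out, and both libraries high in neutrophil markers left out together (0.097). Ngfr lost it in 8 of 21 (edgeR adjusted p up to 0.273), among them those without replicate 1, 2 or 4 of sham_DE, without either tMCAO_DE library, with only these 2 groups fitted and with limma after adding 1 FPKM.

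The effect of depletion within stroke was examined by setting tMCAO_DE (n = 2) against tMCAO_CON (n = 4). Rtn4rl1 rose 1.78-fold, to 167 ± 8.42 CPM in tMCAO_DE against 93.8 ± 17.9 CPM in tMCAO_CON (log2 fold change 0.83 ± 0.15, edgeR adjusted p = 0.00358). It was the only 1 of 8 members called, against 18.6% of all genes, 9.36% higher and 9.26% lower. Lingo3 was 2.15-fold higher, at 52.6 ± 0.63 CPM in tMCAO_DE and 24.5 ± 1.68 CPM in tMCAO_CON, which is a description. The third Nogo receptor, Rtn4rl2, averaged 44.5 ± 4.06 CPM in tMCAO_DE and 33.0 ± 5.66 CPM in tMCAO_CON (log2 fold change 0.43 ± 0.17, edgeR adjusted p = 0.093), and Rtn4r had a log2 fold change of 0.21 ± 0.13 (edgeR adjusted p = 0.279). Groups did not overlap for Rtn4rl1, Rtn4rl2, Rtn4r and Omg, each higher in tMCAO_DE, or 4 of 8 members, where 45.5% of all genes had such groups, 22.6% higher and 22.9% lower. Omg differed by 0.15 ± 0.087 (edgeR adjusted p = 0.253), Rtn4 by -0.29 ± 0.15 (edgeR adjusted p = 0.174) and Ngfr by -0.42 ± 0.43 (95% interval -1.34 to 0.49, edgeR adjusted p = 0.515). The call for Rtn4rl1 ended in 1 of 21 alternatives, the fit without replicate 2 of tMCAO_DE (edgeR adjusted p = 0.0576), with a log2 fold change between 0.74 and 0.93 in all of them. Without replicate 4 of tMCAO_CON it held.

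As shares, 12.5%, 12.5%, 25% and 12.5% of the 8 tested members were called in the 4 comparisons, against 11.3%, 8.44%, 12.4% and 18.6% of all genes, where 1 member makes 12.5%. Over the 8 members the median log2 fold change was 0.17 for sham_DE minus sham_CON, -0.058 for tMCAO_CON minus sham_CON, -0.040 for tMCAO_DE minus sham_DE and 0.18 for tMCAO_DE minus tMCAO_CON. Over all tested genes it lay between -0.012 and 0.017. The 2 stroke comparisons take their group means from separate libraries, and so do the 2 depletion comparisons, whereas each depletion comparison shares a group with each stroke comparison. All 4 comparisons take the spread from 1 fit of the 13 libraries, so their p-values are not from separate libraries.

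**Figure D3:**
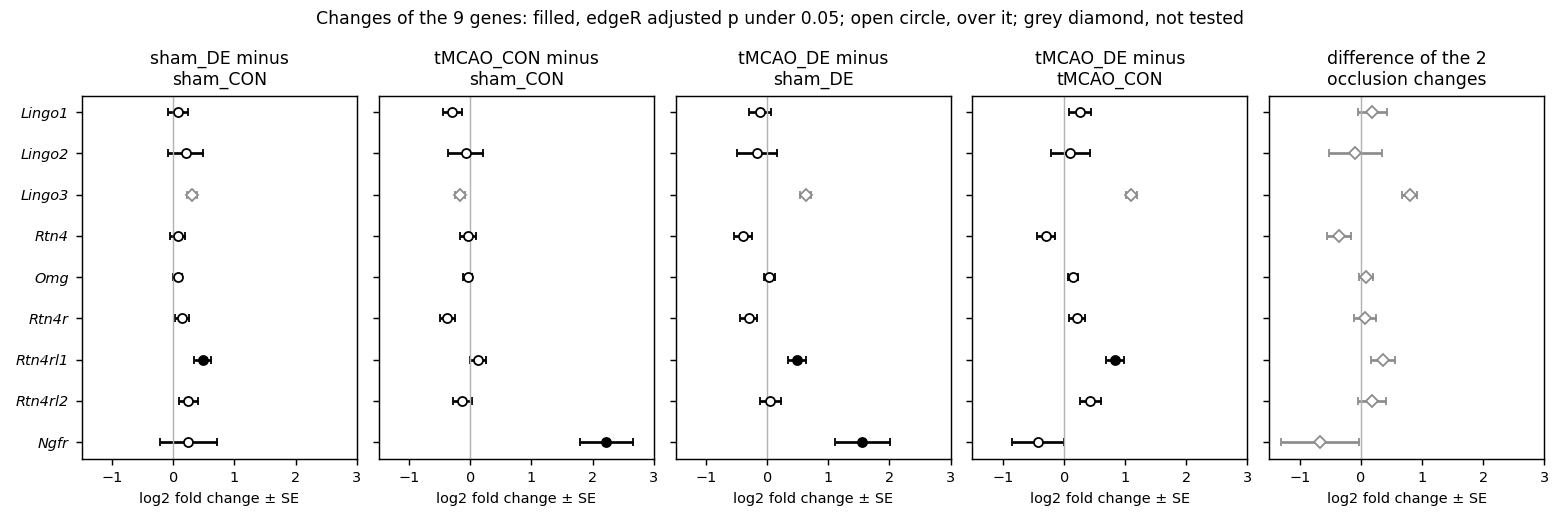
Log2 fold change ± SE of the 9 genes in each comparison, and in the right panel the stroke change with depletion minus that without. Filled points passed the threshold in edgeR (Rtn4rl1 3 times, Ngfr 2 times), open points did not, and grey diamonds were not tested.

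The stroke change of Lingo3 was larger after depletion by 0.80 ± 0.12 on the log2 scale. This value chose the set, so neither it nor its standard error counts as support for a difference. Across all genes 0.0472% passed the threshold for this difference in edgeR, and nothing is read from it for the members. Rtn4rl1 had 0.35 ± 0.20 (-0.075 to 0.78) and Rtn4rl2 0.18 ± 0.23 (-0.31 to 0.68). Like that of Rtn4rl2, the estimates for Rtn4r (0.069 ± 0.18), Omg (0.075 ± 0.12), Lingo1 (0.18 ± 0.24) and Lingo2 (-0.096 ± 0.43) were smaller than their standard errors. The estimate for Lingo2 moved to -0.60 without replicate 2 of tMCAO_DE. Rtn4 (-0.36 ± 0.19) and Ngfr (-0.67 ± 0.64, -2.04 to 0.70) had estimates below 0. Whether the rise of Ngfr after stroke differs between depleted and control mice was not tested.

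The mix of transcripts within each family was taken from FPKM, so all shares depend on the authors' gene lengths. The implied length was at least 8390 bases for Lingo1, 14911 for Lingo2 and 2642 for Rtn4rl2. In the annotation used here their exonic lengths were 4715, 8297 and 1506 bases. Lingo3 made up 25.2% ± 3.55 of the summed FPKM of Lingo1, Lingo2 and Lingo3 in tMCAO_DE, 15.7% ± 1.92 in tMCAO_CON, 16.8% ± 2.76 in sham_DE and 14.6% ± 1.22 in sham_CON, as a description. Rtn4rl1 made up 41.4% ± 2.36 of the summed FPKM of the 3 Nogo receptors in tMCAO_DE, 32.2% ± 4.33 in tMCAO_CON, 30.4% ± 2.80 in sham_DE and 25.9% ± 2.58 in sham_CON. Rtn4r made up 43.8% ± 1.10, 52.7% ± 5.67, 55.0% ± 2.41 and 59.5% ± 1.40 in the same order of groups, and Rtn4rl2 14.5% to 15.2% throughout. NgR1 and NgR3 transcripts were thus close to equal per length in tMCAO_DE, at 43.0% to 44.6% and 39.8% to 43.1%, while in sham_CON Rtn4r held 58.5% to 61.1% and Rtn4rl1 23.3% to 28.4%.

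Rtn4rl1 was also the member whose pattern was most like that of Lingo3, with a Pearson r of 0.852 between their log2 CPM over the 13 libraries. Rtn4rl2 followed at 0.63, then Omg at 0.464, and Rtn4 was lowest at -0.451. All 13 libraries share their group structure and scaling, so these values are descriptive. After subtraction of the group means, r was 0.176 between Lingo3 and Rtn4rl1 and 0.573 between Lingo3 and Rtn4r. Among all 12400 genes with a mean of at least 1 FPKM, Rtn4rl1 ranked 152nd by likeness to Lingo3, and those most like it included Zfp746 (0.955), Coro2b (0.946), Ski (0.946) and Zfp956 (0.945). Ski encodes a transcriptional corepressor, and it had 238 to 241 CPM in tMCAO_DE, 156 to 181 in tMCAO_CON, 186 to 227 in sham_DE and 166.1 to 173 in sham_CON. These 4 genes, like Lingo3, had their highest range in tMCAO_DE without overlap. As they were picked by likeness to Lingo3, this was largely fixed by the choice and is no separate result. Outside Lingo3, the closest pairs of members over the 13 libraries were Lingo1 with Rtn4r (r = 0.802) and Rtn4rl1 with Rtn4rl2 (0.706), and Ngfr ran opposite to Rtn4r (-0.644).

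**Figure D4:**
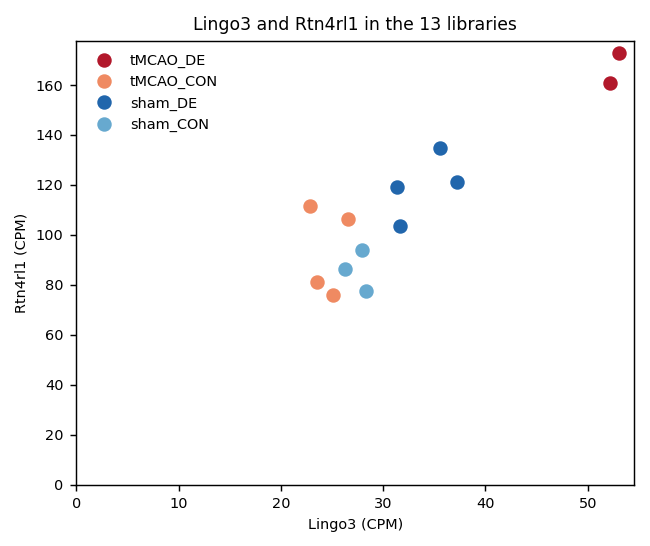
CPM of Rtn4rl1 against CPM of Lingo3, 1 point per library coloured by group, both axes from 0. The 2 tMCAO_DE libraries lie apart at the top right and sham_DE lies above sham_CON on both axes, and after subtraction of the group means r was 0.176.

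The wider pathway was described with a list of 36 ligands, receptors, antagonists, RhoA effectors and neurotrophin receptors, of which 35 were tested. In sham_DE against sham_CON 0 rose and 4 fell (11.43%, against 11.3% of all genes): Bace1, the beta-secretase that reticulons bind (-0.82 ± 0.23, 63.0 ± 16.9 CPM in sham_DE and 111 ± 2.05 in sham_CON, edgeR adjusted p = 0.0361), Mag, a myelin ligand of the Nogo receptors (-0.50 ± 0.13, edgeR adjusted p = 0.0256), Dpysl2, a microtubule-binding mediator of growth cone collapse (-0.35 ± 0.084, edgeR adjusted p = 0.0208), and the reticulon Rtn2 (-0.29 ± 0.0865, edgeR adjusted p = 0.0498). In tMCAO_CON against sham_CON 0 rose and 4 fell (11.43%, against 8.44%): Cntnap1, which encodes the paranodal protein Caspr, at -0.40 ± 0.087, the reticulon Rtn1 at -0.39 ± 0.11, Ntrk2, the BDNF receptor TrkB, at -0.34 ± 0.062, and Adgrb1, an adhesion receptor that binds NgR1, at -0.31 ± 0.083 (edgeR adjusted p = 0.0147, 0.0475, 0.00532 and 0.0368). Adgrb1 had 537 ± 45.0 CPM in tMCAO_CON and 666 ± 41.7 CPM in sham_CON.

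After depletion the pathway list held the NgR1 antagonist Crtac1, also called LOTUS, among its rises. In tMCAO_DE against sham_DE it was the single gene that rose, at 86.0 ± 0.642 CPM in tMCAO_DE and 59.7 ± 4.39 CPM in sham_DE (0.53 ± 0.13, edgeR adjusted p = 0.0208). The 4 that fell in that comparison were Cntnap1 (-0.55 ± 0.10), Ptprs, a proteoglycan receptor (-0.35 ± 0.092), Kalrn, an exchange factor for small GTPases (-0.35 ± 0.088), and Ntrk2 (-0.25 ± 0.071), and the 5 calls make 14.29%, against 12.4% of all genes. In tMCAO_DE against tMCAO_CON Crtac1 (0.42 ± 0.13, edgeR adjusted p = 0.0416) and Adgrb1 (0.35 ± 0.093, edgeR adjusted p = 0.0225) rose, and Cntnap1 (-0.40 ± 0.10) and Limk2, a kinase that acts on cofilin (-0.38 ± 0.10), fell, or 11.43% against 18.6%. By direction, 0% of the list was higher and 11.43% lower in both comparisons with sham_CON, where 6.85% and 5.14% of all genes were higher and 4.49% and 3.31% lower. In tMCAO_DE against sham_DE 1 of 35 was higher and 4 of 35 (11.43%) lower, where all genes gave 6.59% and 5.84%, and in tMCAO_DE against tMCAO_CON 2 of 35 were higher and 2 lower, where all genes gave 9.36% and 9.26%. Counts of calls in the list without 1 library ranged from 0 to 10, 1 to 5, 0 to 5 and 0 to 6 in the order of comparisons given. In sham_DE against sham_CON it was 10 without replicate 1 of sham_DE and 0 without replicate 1 or 3 of sham_CON, and in both tMCAO_DE comparisons it was 0 without replicate 1 and 1 without replicate 2 of tMCAO_DE. Without both libraries high in neutrophil markers, no gene of the list was called in sham_DE against sham_CON (edgeR adjusted p of the 4 named genes 0.0845 to 0.28). The calls of Cntnap1 (edgeR adjusted p = 0.0732) and Rtn1 (0.209) in tMCAO_CON against sham_CON and of Crtac1 in tMCAO_DE against tMCAO_CON (0.0576) also ended without both. Of the calls named, Rtn2 held in 4 and Rtn1 in 8 of 21 alternatives, Ntrk2 after stroke in control mice in all 21, and the others in 11 to 20.

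**Figure D5:**
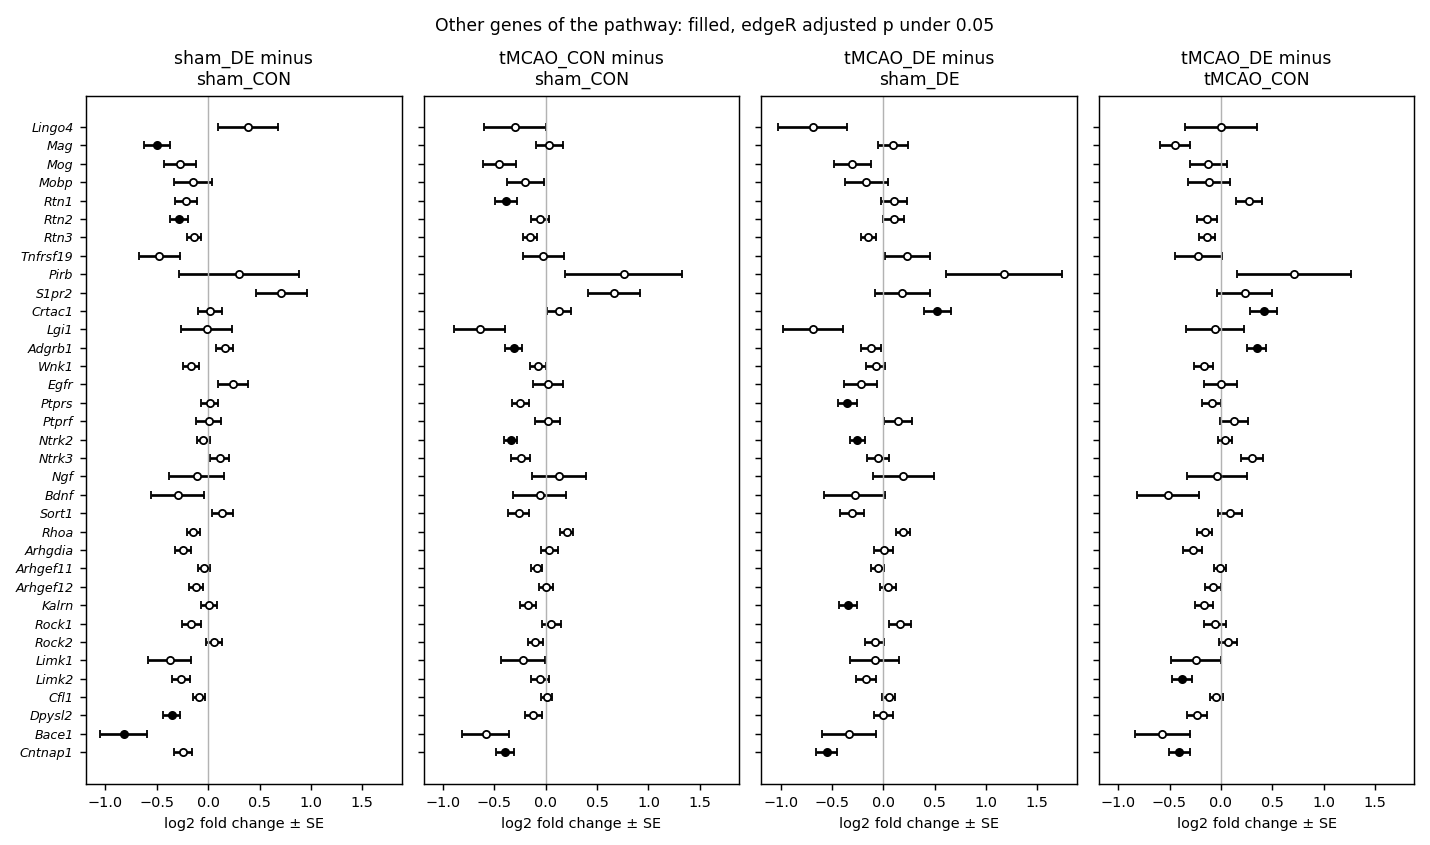
Log2 fold change ± SE of the 35 tested pathway genes in each of the 4 comparisons on a shared axis, filled where the edgeR adjusted p was under 0.05. Of 17 filled points 14 lie below 0, and the 3 above are Crtac1 in both tMCAO_DE comparisons and Adgrb1 in tMCAO_DE minus tMCAO_CON.

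Cell type markers were measured beside the members. Summed over 8 genes, neuron markers lay at 6922 to 7007 CPM in tMCAO_DE, 7185 to 7865 in tMCAO_CON, 7802 to 9115 in sham_DE and 9042 to 9409 in sham_CON. In tMCAO_DE against tMCAO_CON 1 of 8 rose and 2 of 8 fell, where 9.36% of all genes were higher and 9.26% lower. The 6 markers of cortical projection neurons summed to 1930 to 2032 CPM in tMCAO_DE, 1712 to 2084 in tMCAO_CON, 1851 to 2123 in sham_DE and 1918 to 2121 in sham_CON. The 6 striatal markers summed to 405 to 425 CPM in tMCAO_DE, against 203 to 232, 164 to 218 and 140 to 239 CPM in tMCAO_CON, sham_DE and sham_CON. In tMCAO_DE against tMCAO_CON 1 of the 6 passed the threshold, where 18.6% of all genes did. That was Ppp1r1b, at 338 to 372 CPM in tMCAO_DE and 123 to 165.4 CPM in tMCAO_CON. The dopamine receptors Drd1 and Drd2, which define those neurons, lay at 5.77 to 6.07 and 0.502 to 0.506 CPM in tMCAO_DE and at 4.79 to 8.29 and 0.441 to 1.65 CPM in tMCAO_CON. The 8 oligodendrocyte markers summed to 1769 to 1885 CPM in tMCAO_DE, 1663 to 2497 in tMCAO_CON, 1766 to 2295 in sham_DE and 2260 to 2778 in sham_CON. The 6 astrocyte markers summed to 1918 to 3578 CPM in tMCAO_DE, 3617 to 4406 in tMCAO_CON, 1379 to 3877 in sham_DE and 3994 to 4030 in sham_CON. The wide spread after toxin came from the glutamate transporter Slc1a2, at 511 to 2206 CPM in tMCAO_DE and 488 to 2879 CPM in sham_DE. Gfap, a filament protein of reactive astrocytes, had 646 to 648 CPM in tMCAO_DE, 667 to 1012 in tMCAO_CON, 137 to 180 in sham_DE and 51.0 to 91.4 in sham_CON, and it rose in 3 comparisons but was not called in tMCAO_DE against tMCAO_CON. Border macrophage markers (5 genes) summed to 34.9 to 45.4 CPM in tMCAO_DE, 12.9 to 22.2 in tMCAO_CON, 28.8 to 40.0 in sham_DE and 6.22 to 8.07 in sham_CON. Oligodendrocyte precursor markers (6 genes) summed to 220 to 243 CPM in tMCAO_DE, 236 to 303 in tMCAO_CON, 204 to 221 in sham_DE and 284 to 309 in sham_CON, and endothelial markers (5 genes) to 189 to 207, 176 to 240, 140 to 197 and 187 to 211 CPM. The 8 microglia markers summed to 57.6 to 68.8 CPM in tMCAO_DE, 383 to 463 in tMCAO_CON, 45.6 to 87.8 in sham_DE and 320 to 333 in sham_CON. No marker of these lists was at 0 in any library, whereas of 5 neutrophil markers 3, 2 and 3 were at 0 in some library of tMCAO_CON, sham_DE and sham_CON. The part of cell composition in the values of Rtn4rl1, Lingo3 and Ngfr was not tested.

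Base composition was recorded because most members are rich in G and C. The longest transcripts of Rtn4rl2 (68.5% GC), Rtn4r (62.7%), Lingo3 (61.1%), Ngfr (58.6%), Lingo1 (58.0%) and Rtn4rl1 (56.9%) stood above the median of 49.7% over tested genes, and those of Rtn4 (46.0%), Omg (41.7%) and Lingo2 (38.8%) below it. Across 16288 genes, which are not independent replicates, Spearman's correlation between GC content and log2 fold change was 0.138 for tMCAO_DE minus tMCAO_CON, 0.0602 for tMCAO_DE minus sham_DE, -0.0235 for tMCAO_CON minus sham_CON and 0.0768 for sham_DE minus sham_CON. In the tenth of genes richest in GC, from 57.9% upward, the median log2 fold change for tMCAO_DE minus tMCAO_CON was 0.078, against 1.10 for Lingo3, which belongs to that group. Rtn4rl1, at percentile 86.2 of GC content and so outside it, had 0.83, and the part of base composition in either value was not tested.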

How the data were processed

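Total RNA from mouse brain was isolated on silica columns and made into paired-end Illumina TruSeq libraries, per the labels' protocols. The authors deposited 4 tables, 1 per group, with a count and an FPKM per gene and library. The counts were deposited as whole numbers without normalisation, per the file headers. The FPKM values deposited by the authors equal counts over the library total and a length fixed per gene, and their mean column matched the libraries to within 6.67e-06. Cufflinks 2.1.1 and Cuffdiff were used with build mm10, per the submitters' processing notes. The sources used here do not give the aligner, the annotation or the strand setting.

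Libraries were grouped by title. Counts of 29 symbols with several entries were summed, and 24 names blank or turned into dates were left out. In edgeR 4.0.16 (R 4.3.3), TMM factors scaled the counts, and filterByExpr kept 16940 genes and removed 4116. All 13 libraries entered 1 model with 4 group means, tested by quasi-likelihood, two-sided, with Benjamini-Hochberg adjustment over all 16940 genes and a threshold of 0.05. The common biological coefficient of variation was 15.2%. Each standard error was approximated from the log2 fold change and the root of its F statistic. CPM divide counts by the library total after TMM, and compare libraries within a gene. P-values measure the spread between these libraries. Alternatives used DESeq2 1.42.0, limma 3.58.1 on log2(FPKM + 0.1) and log2(FPKM + 1), other size factors, no filter, the groups compared alone, a replicate block and libraries left out; those for the pathway list were added after seeing the data.

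The members, the pathway list, the marker lists and the tests were chosen with earlier results of these data known. All 9 members are named. Of the pathway list, up to 6 genes per comparison are named, those past the threshold with the largest absolute log2 fold change and a mean of at least 1 FPKM. The 5 genes of that level most correlated with Lingo3 also fall under the rule, of which 1 is not reported here. Coordinates come from GENCODE M21 on GRCm38 and promoters from RefSeq.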

Additional observations from a re-analysis of the deposited data

How the results depend on the processing

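With 1 library left out at a time, members called ranged from 0 to 1 for sham_DE minus sham_CON, 1 to 2 for tMCAO_CON minus sham_CON, 0 to 2 for tMCAO_DE minus sham_DE and 0 to 1 for tMCAO_DE minus tMCAO_CON. All genes called ranged from 591 to 3725, 564 to 1814, 452 to 2096 and 345 to 3873 in that order, against 1921, 1430, 2105 and 3155 with all libraries. The lowest counts came without replicate 3 of sham_CON (591 and 564) and replicate 2 of tMCAO_DE (452 and 345), and 3725 without replicate 1 of sham_DE; a lone tMCAO_DE library was assumed to vary like the other groups. Replicate numbers did not pair the libraries, since deviations of same-numbered libraries correlated at -0.0641 to 0.106 and a library correlated best with its own number in 4 of 20 checks; with a replicate block, members called were 0 and all genes 823 for sham_DE minus sham_CON, and 1 and 1341 for tMCAO_DE minus sham_DE. Fits of only the 2 groups gave 645 and 1137 genes in these comparisons, 1 member for tMCAO_DE minus sham_DE and 2 for tMCAO_CON minus sham_CON, where DESeq2 also gave 2. Without both libraries high in neutrophil markers, sham_DE minus sham_CON held 0 members and 219 genes, 37.44% of them higher against 60.44% with all libraries, and tMCAO_DE minus sham_DE 1 member. That comparison also held 1 member with DESeq2's size factors, with no filter and with limma after adding 1 FPKM, which moved the difference between the stroke changes of Lingo3 to 0.69, against 0.80. Higher calls made up 60.84% for tMCAO_CON minus sham_CON, 53.02% for tMCAO_DE minus sham_DE and 50.27% for tMCAO_DE minus tMCAO_CON in edgeR, and 85.27%, 63.05% and 40.22% in limma with 0.1 FPKM added (84.74%, 65.75% and 41.58% with 1 added). With 0.1 FPKM added, limma also moved the median log2 fold change of all genes, by 0.084, 0.047 and -0.017 in the same order of comparisons. No call of a member changed sign. Uncalled estimates that did, with 1 library left out, ranged for sham_DE minus sham_CON from -0.022 to 0.17 (Lingo1), -0.070 to 0.20 (Rtn4) and -0.061 to 0.47 (Ngfr). For tMCAO_CON minus sham_CON they ranged from -0.41 to 0.11 (Lingo2), -0.17 to 0.098 (Rtn4) and -0.10 to 0.056 (Omg), for tMCAO_DE minus sham_DE from -0.32 to 0.070 (Lingo1), -0.67 to 0.20 (Lingo2) and -0.046 to 0.14 (Rtn4rl2), and for tMCAO_DE minus tMCAO_CON from -0.40 to 0.48 (Lingo2). Ngfr had -0.18 in sham_DE minus sham_CON without both libraries. In tMCAO_CON minus sham_CON limma with 0.1 and 1 FPKM added gave 0.069 and 0.068 for Rtn4 and 0.056 and 0.055 for Omg, and Omg had 0.056 without both libraries. The cause of these changes was not tested. With 7 to 85 counts per library, Ngfr had the largest standard errors of the set, and only 2 libraries stand behind tMCAO_DE.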
